A study of Homo sapiens with 17 samples.

Results

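The peaks described here lay on the 12S and 16S ribosomal RNAs of the human mitochondrion. A deposited peak was counted when it was on the plus strand of chrM and its midpoint fell within the 12S gene (MT-RNR1, hg19 positions 650 to 1603) or the 16S gene (MT-RNR2, 1673 to 3230), and no measured value was used to choose it. The 11 peak lists held 577 such peaks, 179 on 12S and 398 on 16S, out of 389788 peaks in all (0.148%). No list had a peak on the minus strand opposite either gene.

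The study used eCLIP, an assay that crosslinks proteins to bound RNA in living cells with ultraviolet light, recovers 1 protein with an antibody and sequences the RNA fragments that come along. All samples came from 293T, a human embryonic kidney cell line grown under standard conditions, with no genetic change or drug treatment named in the labels. The 6 proteins were AIFM1, a flavoprotein of the mitochondrial intermembrane space, NUMA1, a protein of the nucleus and the spindle poles, RANGAP1, which activates the GTPase activity of Ran, RNF219, a RING finger protein, VIM, which is vimentin, the building block of a class of cytoplasmic filaments, and ZNF184, which carries zinc fingers. RNF219 had 1 eCLIP library and the other proteins had 2 each, and every protein had 1 size-matched input, prepared without the antibody step but cut from the gel at the same height. The series calls the replicates biological and says no more of how they were grown. The p-values thus measure the spread between these libraries or, where libraries of a protein were averaged first, between the 6 proteins. Where a protein has 2 libraries, they share an input. Peak lists give no expression levels, so the cell line was not checked against marker genes.

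The mitochondrial genome encodes both ribosomal RNAs of the mitochondrial ribosome. The 12S rRNA is the core of the small subunit, which decodes the messenger, and the 16S rRNA is the core of the large subunit, where peptide bonds form. Both are cut from 1 heavy-strand transcript in which transfer RNAs stand before, between and after them, and in human cells the valine transfer RNA encoded between the genes is itself built into the large subunit. These RNAs are abundant, and they are present in the input of any eCLIP experiment as well as in the pull-down.

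Each peak carries the authors' log2 fold, the share of the eCLIP reads that fell in the peak over the share of the input reads there. A value above 0 means that the antibody enriched that stretch, and a value below 0 means that the stretch took a smaller share of the eCLIP reads than of the input reads. Each peak also carries a −log10 p, whose highest value, 400, is called the cap here. A peak was called significant when both the log2 fold and the −log10 p were at least 3, which is 8-fold over input. The lists held 10682 to 63198 peaks per library. They state no read numbers, and a stretch without a peak has no value.

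The 577 peaks covered the same limited stretches of the rRNAs in library after library. On 12S, 506 of 954 nt (53.0%) lay in a peak of at least 1 library, in 5 separate blocks, and the longest stretch without a peak in any of the 11 libraries ran from 1014 to 1250 (237 nt). On 16S, 881 of 1558 nt (56.5%) lay in a peak of at least 1 library, in 13 blocks, and the longest gap was 2869 to 2996 (128 nt). In all 11 libraries at once, 111 nt of 12S and 125 nt of 16S were in a peak. The peaks were often abutting pieces of 1 longer stretch: the 88 RNF219 peaks formed 16 unbroken runs and the 73 peaks of ZNF184 replicate 2 formed 14, so counts of peaks are counts of pieces.

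Significant rRNA peaks were found with AIFM1 and RNF219 and lay mostly on 12S. Of the 577 peaks, 37 were significant, 33 on 12S and 4 on 16S. RNF219 had 26 (29.5% of its 88 rRNA peaks, against 0.926% of all its peaks), AIFM1 replicate 2 had 10 (22.7% of 44, against 0.214% of all its peaks), and AIFM1 replicate 1 had 1 (3.33% of 30, against 0.216% of all its peaks). These pieces lay in 7 runs in RNF219, 5 in AIFM1 replicate 2 and 1 in AIFM1 replicate 1. Without the RNF219 library 11 significant peaks were left. On the rest of the chrM plus strand RNF219 had 25 significant peaks of 86, a share like that on its rRNAs, AIFM1 replicate 2 had 5 of 68 and AIFM1 replicate 1 had 0 of 42. Within the rRNAs, RNF219 had 23 of 30 significant on 12S and 3 of 58 on 16S, and AIFM1 replicate 2 had 9 of 12 and 1 of 32.

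The other 8 libraries had 0 significant rRNA peaks. In all of them but NUMA1 replicate 2, significant peaks took a larger share of the whole list than in AIFM1 or RNF219. Over all peaks the significant share was 1.51% and 0.877% in the NUMA1 libraries, 1.52% and 2.99% in the RANGAP1 libraries, 5.29% and 4.50% in the VIM libraries, and 3.15% and 4.82% in the ZNF184 libraries. With 32 to 78 rRNA peaks in each of these libraries, such shares amount to a few peaks at most. A count of 0 in a single library therefore says little. On the remaining plus strand of chrM, VIM had 4 of 53 and 9 of 60 peaks significant. ZNF184 had 3 of 93 and 5 of 98, close to its shares over all peaks. NUMA1 had 0 of 102 and 0 of 91, and RANGAP1 had 0 of 82 and 0 of 71. Reads could be estimated at 96 rRNA peaks below the cap, 1 of them in RNF219, with a counting standard error of at most 0.378 log2 units and a median of 0.0565. The significant RNF219 peaks were at the cap, which gives a lower bound on their reads. The bound was lowest at 1542 to 1567, at about 8.51 input reads, where the standard error was at most 0.496.

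Most rRNA peaks were depleted relative to input. A log2 fold below 0 was found at 363 of the 577 peaks. Every rRNA peak of RANGAP1 replicate 2 was below 0 (50 of 50, against 7.47% of all its peaks), as were 47 of 48 in replicate 1 (against 9.74%). VIM had 31 of 32 and 30 of 35 below 0 (against 7.50% and 8.47% of all peaks). ZNF184 had 61 of 78 and 54 of 73 below 0 (against 10.7% and 12.8%). AIFM1 had 17 of 30 and 24 of 44 (against 11.9% and 20%) and RNF219 had 48 of 88 (against 21.6%), and in these 3 libraries all of them were on 16S. NUMA1 was the exception, with 0 of 57 and 1 of 42 below 0 (against 12.2% and 9.48% of all peaks).

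**Figure D1:**
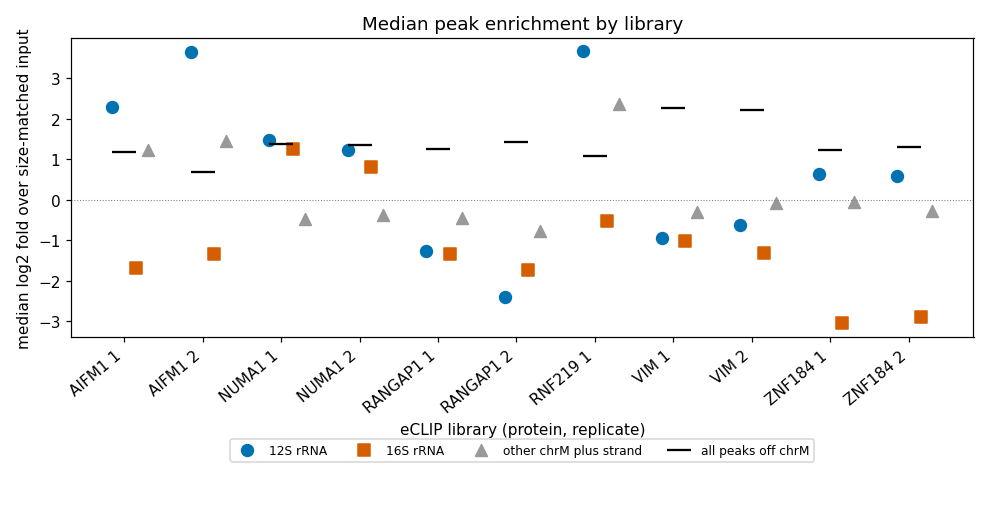
Median log2 fold over size-matched input of the peaks on 12S (circles), 16S (squares) and the rest of the chrM plus strand (triangles) in each of the 11 eCLIP libraries, with the median of all peaks off chrM as a bar. The 12S median was above the bar by 1.13 to 2.96 in AIFM1 and RNF219 and below it in RANGAP1 and VIM, and the 16S median was below the bar in all 11 libraries.

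Both rRNAs were set against each library's own peaks off chrM. The median log2 fold off chrM was 1.17 and 0.68 in AIFM1, 1.38 and 1.34 in NUMA1, 1.24 and 1.42 in RANGAP1, 1.07 in RNF219, 2.27 and 2.22 in VIM, and 1.23 and 1.29 in ZNF184. Relative to these medians, the median over all rRNA peaks was lower in every library. The difference was −0.26 ± 0.24 (SD, n = 2) in NUMA1, −1.17 in RNF219 (n = 1), −1.40 ± 0.48 in AIFM1, −2.85 ± 0.46 in RANGAP1, −3.10 ± 0.15 in VIM and −4.08 ± 0.07 in ZNF184 (SD, n = 2 each). By these medians NUMA1 stood nearest to its other peaks and ZNF184 farthest below them. AIFM1 and RNF219 did not differ beyond the spread of AIFM1, nor RANGAP1 and VIM beyond that of RANGAP1.

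The libraries of 1 protein resembled each other in this difference. The mean absolute difference between replicates was 0.394 log2 units, against 1.72 over all 945 ways to pair the 10 libraries (exact permutation test, 1-sided, p = 0.00317, smallest possible 0.00106). With peaks under 10 nt left out, the value was 0.876 and the exact permutation p was 0.0667. The libraries of a protein share an input, so this test cannot tell likeness by protein from likeness by input. Set against the other libraries, NUMA1 was higher by 2.42 (exact permutation p = 0.0182, 2-sided, adjusted 0.109 over the 6 proteins), and both its libraries were above the other 9. ZNF184 was lower, with a difference of −2.26 (exact permutation p = 0.0364, adjusted 0.109). This order changed under other settings. With peaks of at least 10 nt, ZNF184 was at −0.78 (exact permutation p = 0.527), above RANGAP1 (−1.61) and VIM (−1.82), and RNF219 (2.14) was above NUMA1 (1.66). With length-weighted means, ZNF184 was at −1.34 (exact permutation p = 0.382), above VIM (−1.55) and RANGAP1 (−1.90), and RNF219 (2.85) was again above NUMA1 (1.62). With medians of all peaks, the adjusted p-values of AIFM1, RANGAP1, RNF219 and VIM were all 0.545. With 2 of 11 libraries the smallest p is 0.0182, and with the 1 of RNF219 it is 0.0909, so no protein could pass 0.05 after adjustment.

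The difference between 12S and 16S divided the proteins. In AIFM1, the 12S peaks had a median log2 fold of 2.30 and 3.65 and the 16S peaks of −1.70 and −1.33. RNF219 had 3.66 on 12S and −0.53 on 16S. ZNF184 had 0.63 and 0.58 on 12S and −3.06 and −2.89 on 16S. So the 12S median was above input and the 16S median below it in each of these 5 libraries, though in ZNF184 12S stayed below the median off chrM, and in ZNF184 replicate 2 the lowest 12S peak (−0.45) was still above the highest 16S peak (−2.29).

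The remaining libraries showed no such gap. NUMA1 had 1.47 and 1.22 on 12S and 1.24 and 0.82 on 16S, near its median off chrM on both. RANGAP1 had −1.28 and −2.40 on 12S and −1.34 and −1.74 on 16S. VIM had −0.94 and −0.64 on 12S and −1.03 and −1.33 on 16S. RANGAP1 and VIM were thus below input on both rRNAs.

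The median of 12S minus that of 16S was 4.49 ± 0.69 in AIFM1 (SD, n = 2), 4.19 in RNF219 (n = 1), 3.58 ± 0.15 in ZNF184, 0.39 ± 0.42 in VIM, 0.31 ± 0.13 in NUMA1 and −0.30 ± 0.50 in RANGAP1 (SD, n = 2 each). Single libraries lay either at 3.47 to 4.98 (AIFM1, RNF219, ZNF184) or at −0.66 to 0.69 (NUMA1, RANGAP1, VIM), with none between. Within the lower range, VIM and NUMA1 overlapped, and both libraries of each were above both of RANGAP1. Over the 6 proteins the mean was 2.11 ± 2.20 (SD, n = 6), positive in 5 of 6 proteins (exact sign-flip permutation test, 2-sided, p = 0.0625, adjusted 0.125 over 4 such tests). The smallest p this test allows is 0.0312, and it was reached without RANGAP1 replicate 2, where the mean was 2.17.

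Replicates were again alike, with a mean absolute difference of 0.537 log2 units against 2.36 over all 945 pairings (exact permutation test, 1-sided, p = 0.00529). Here too protein and shared input cannot be told apart. Against the other libraries, AIFM1 was higher by 3.14 (exact permutation p = 0.0364, adjusted 0.218), RNF219 by 2.50 (adjusted 0.418) and ZNF184 by 2.02 (adjusted 0.418). RANGAP1 differed by −2.72 (exact permutation p = 0.0909, adjusted 0.273), and NUMA1 by −1.96 and VIM by −1.87 (both adjusted 0.418). For the 12S and 16S difference, both the pairing test and these comparisons by protein were added after the data had been seen.

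Peaks lay at different places in different libraries, so the comparison was repeated, also after the data had been seen, on the 111 nt of 12S and 125 nt of 16S that were in a peak in all 11 libraries. On these nucleotides the difference was 4.28 ± 0.10 in AIFM1 (SD, n = 2), 4.37 in RNF219 (n = 1) and 4.20 ± 0.57 in ZNF184 (SD, n = 2). It was 1.08 ± 0.09 in NUMA1, 0.23 ± 0.19 in RANGAP1 and 0.09 ± 0.75 in VIM (SD, n = 2 each). The gap between both ranges of libraries remained, from 1.15 in NUMA1 replicate 2 to 3.79 in ZNF184 replicate 2. The mean over proteins was 2.37, positive in all 6 (exact sign-flip permutation p = 0.0312, unadjusted and the smallest possible). In VIM the positive sign rests on the mean of libraries at −0.44 (replicate 1) and 0.62 (replicate 2).

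The matched values also show on which rRNA the proteins parted. On the shared 12S nucleotides the mean log2 fold was 2.21 and 2.86 in AIFM1, 3.15 in RNF219, 1.91 and 1.72 in NUMA1, 0.34 and 0.62 in ZNF184, −0.72 and −0.45 in VIM, and −1.12 and −1.62 in RANGAP1. On the shared 16S nucleotides it was 0.89 and 0.58 in NUMA1, −0.28 and −1.07 in VIM, −1.22 in RNF219, −1.48 and −1.72 in RANGAP1, −2.00 and −1.49 in AIFM1, and −4.27 and −3.17 in ZNF184. The orders of the proteins thus differed between the genes: AIFM1 and RNF219 were high on 12S and below NUMA1 and VIM on 16S, and ZNF184, in the middle on 12S, was lowest on 16S.

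**Figure D2:**
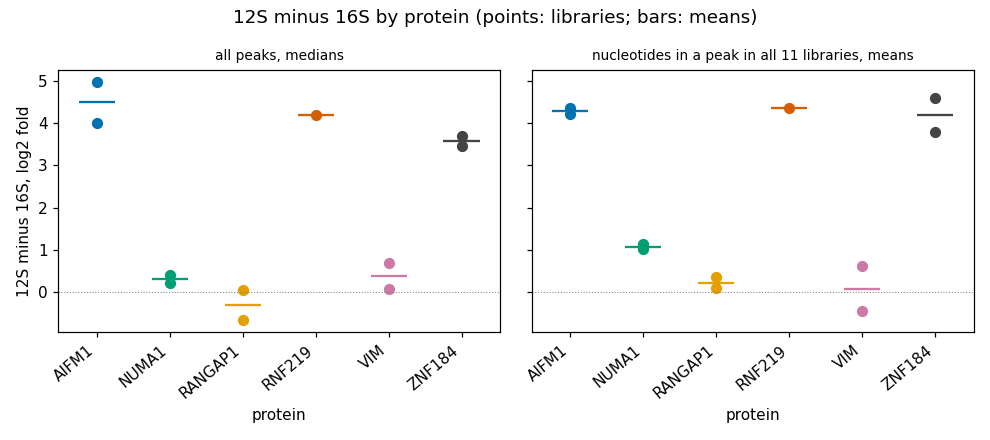
Log2 fold on 12S minus log2 fold on 16S for each protein, from medians over all peaks (left) and from means over the nucleotides in a peak in all 11 libraries (right), where points are libraries and bars are protein means. On the left AIFM1, RNF219 and ZNF184 lie at 3.47 to 4.98 and the other libraries at −0.66 to 0.69.

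Along 12S, peaks fell into 4 blocks used by at least 10 of the 11 libraries and 1 more near the 3′ end. In the first block, 693 to 786, the mean log2 fold was 4.14 in RNF219, 3.62 in AIFM1 replicate 2, 1.91 and 1.94 in NUMA1, 1.71 and 1.94 in ZNF184, −0.80 and −0.19 in VIM, and −2.16 and −2.28 in RANGAP1. AIFM1 replicate 1 had no peak there. In the next block, 791 to 827, AIFM1 had 2.30 and 2.88 and RNF219 had no peak.

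The block from 921 to 1013 held the strongest shared enrichment. It reached 4.83 in RNF219, 2.92 and 3.82 in AIFM1, and 2.56 and 2.06 in NUMA1, against −0.16 and −0.12 in ZNF184, −0.46 and −0.18 in VIM, and −1.18 and −1.72 in RANGAP1. It was the highest 12S block in both libraries of AIFM1, NUMA1, RANGAP1 and VIM and the lowest in both of ZNF184, while RNF219 was higher in the last block.

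The longest 12S block, 1251 to 1493, had 2.15 and 3.18 in AIFM1, 2.78 in RNF219, 1.18 and 0.97 in NUMA1, 0.61 and 0.84 in ZNF184, −1.06 and −0.67 in VIM, and −1.55 and −2.19 in RANGAP1. The last block, 1529 to 1567, had a peak in RNF219 (6.82) and in ZNF184 replicate 2 (0.72) and in no other library. No library had a peak in the windows 1050 to 1149 and 1150 to 1249.

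Along 16S, AIFM1, RNF219 and ZNF184 began below input. In the first block, 1707 to 1789, the mean log2 fold was −3.41 and −2.55 in AIFM1, −1.58 in RNF219, −3.02 and −2.60 in ZNF184, −1.29 and −2.07 in VIM, −1.64 and −2.29 in RANGAP1, and 1.15 in NUMA1 replicate 1, with no peak in NUMA1 replicate 2. In the block 1826 to 1938, ZNF184 was at −4.86 and −3.61, AIFM1 at −1.45 and −0.97, RNF219 at −1.54, RANGAP1 no lower than −1.35, VIM at 0.23 and −0.73, and NUMA1 at 1.22 and 0.82. These 5′ stretches were depleted in every library with a peak there except those of NUMA1 and, in the second of them, VIM replicate 1.

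Further along, AIFM1 and RNF219 rose, fell and rose again. In the block 1976 to 2023, AIFM1 was at −0.42 and −0.07 and RNF219 had no peak, and in the block 2107 to 2189, AIFM1 was at 0.10 and 0.15 and RNF219 at 0.77. In the block 2210 to 2461, AIFM1 was at −2.59 and −1.79 and RNF219 at −0.45. In the next block, 2526 to 2572, AIFM1 was at 2.58 and 3.32 and RNF219 at 2.14, while NUMA1 was at 0.96 and 0.61, VIM at −0.55 and −0.06, ZNF184 replicate 1 at −0.69, and RANGAP1 at −1.29 and −1.79. The block 2817 to 2868 was again high in AIFM1, at 2.20 and 2.17, and had 1.45 and 1.17 in NUMA1 and no peak in RNF219. The last block, 3185 to 3230 at the 3′ end of the gene, had a peak in RNF219 (5.91) and in ZNF184 replicate 1 (−0.14).

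**Figure D3:**
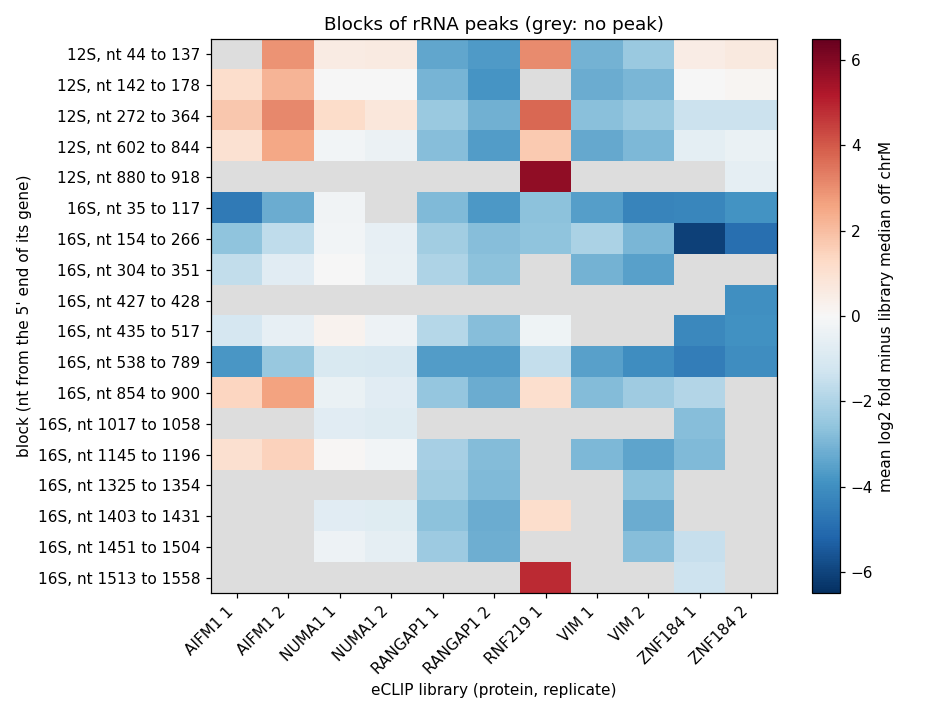
Mean log2 fold minus the library's median off chrM in each block of rRNA peaks (rows, in nt from the 5′ end of the gene) and each eCLIP library (columns), with grey where a library had no peak. AIFM1 and RNF219 are above 0 on 12S and on 2 or more 3′ blocks of 16S and below 0 on the 5′ blocks of 16S, and RANGAP1 and VIM are below 0 throughout.

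Each gene was divided at its middle to measure these trends. On 16S, the median of the 5′ peaks minus that of the 3′ peaks was −3.91 ± 0.48 in AIFM1 (SD, n = 2), −2.84 in RNF219 (n = 1), −1.49 ± 1.86 in ZNF184, −0.83 ± 0.38 in VIM, −0.08 ± 0.13 in RANGAP1 and 0.22 ± 0.06 in NUMA1 (SD, n = 2 each). In AIFM1 replicate 1 the medians were −1.86 before the middle and 2.39 after it, and in replicate 2 they were −1.40 and 2.18. The 3′ values rest on few peaks: 2 and 3 in AIFM1, 9 in RNF219, 3 and 5 in VIM, and 14 and 1 in ZNF184. Over the 6 proteins the difference was −1.49 ± 1.61 (SD, n = 6), negative in 5 of 6 (exact sign-flip permutation p = 0.0938, adjusted 0.125). With the middle stretch of the gene left out, so that peaks near its ends were compared, it was −2.48 (exact sign-flip permutation p = 0.125).

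On 12S the trend was weaker and ran the other way. The 5′ minus 3′ difference was 1.27 in RNF219 (n = 1), 1.10 ± 0.12 in NUMA1, 0.57 ± 0.83 in AIFM1, 0.33 ± 0.09 in VIM, 0.26 ± 0.39 in RANGAP1 and −0.33 ± 0.11 in ZNF184 (SD, n = 2 each). Its mean was 0.54 ± 0.59 (SD, n = 6), positive in 5 of 6 proteins (exact sign-flip permutation p = 0.0938, adjusted 0.125). It passed at an unadjusted p of 0.0312, the smallest possible, with length-weighted means (0.49), with peaks of at least 10 nt (0.53) and with the middle stretch of the gene left out (0.56), all by the exact permutation test.

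**Figure D4:**
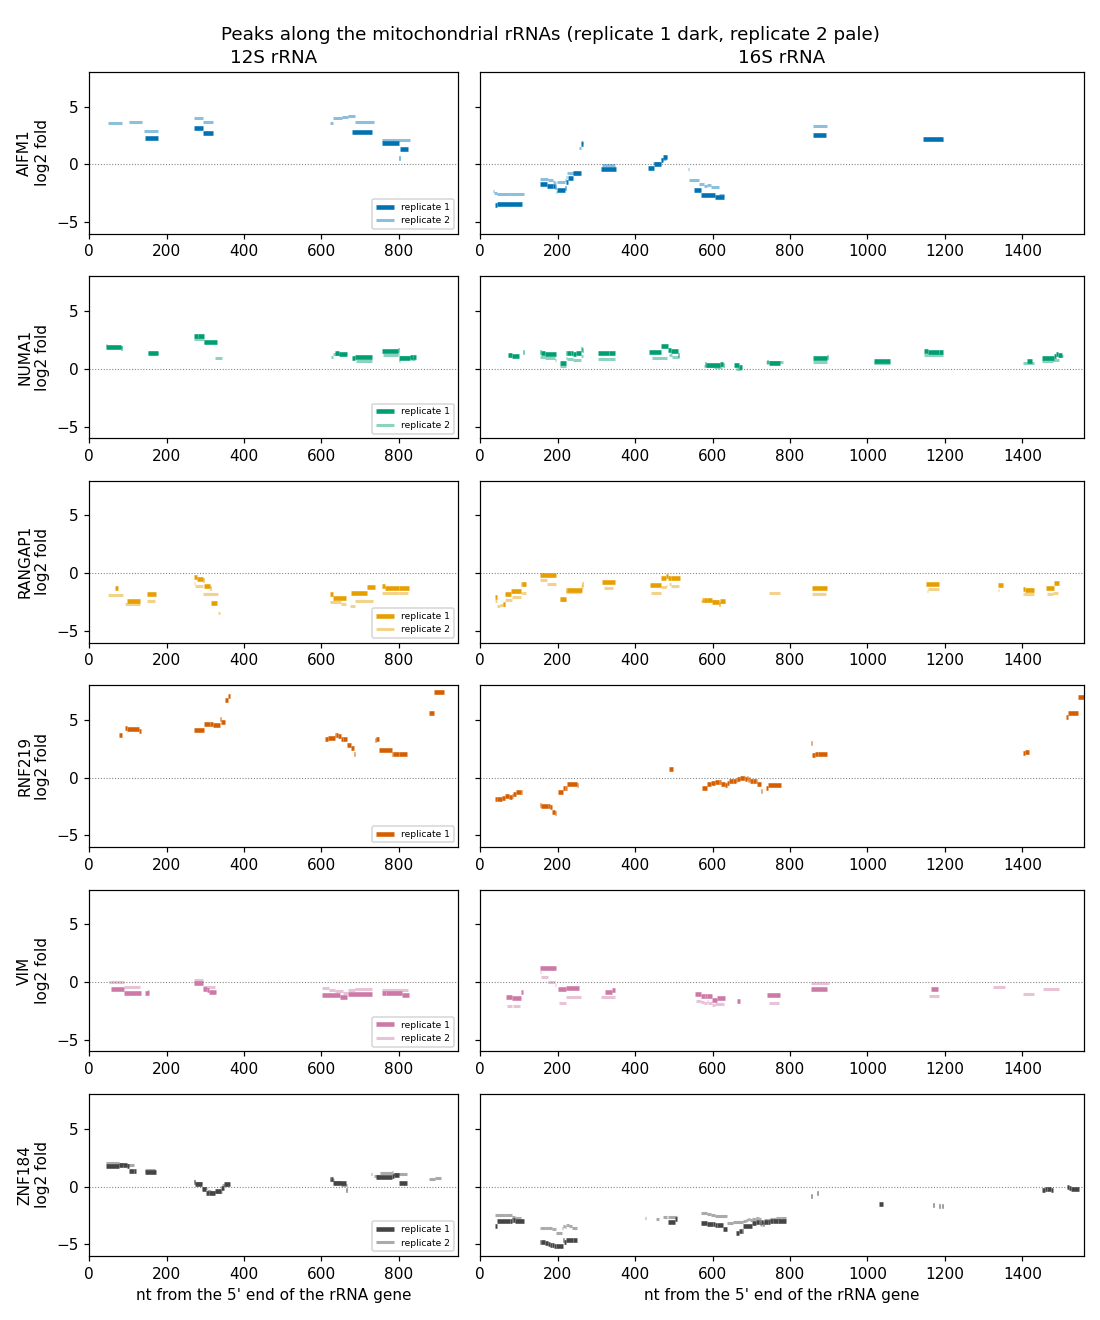
Log2 fold over input of every rRNA peak, drawn as a bar from its start to its end, against the distance in nt from the 5′ end of the 12S (left) and 16S (right) genes, with 1 row per protein and replicates 1 and 2 in dark and pale. AIFM1 lies on 16S at −3.40 near the 5′ end, again below 0 before the middle, and above 2 beyond it, and RNF219 reaches 7.41 near the 3′ end of 12S and 6.98 at that of 16S.

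The shape of the profile was shared by the replicates of a protein. Over windows of 100 nt in which both replicates had a peak, Pearson's r was 0.990 in AIFM1 (15 windows), 0.993 in ZNF184 (14), 0.946 in RANGAP1 (18), 0.940 in NUMA1 (19) and 0.669 in VIM (16). These are descriptions, since the replicates share an input and neighbouring windows share peaks. In level, replicate 1 minus replicate 2 was −0.64 ± 0.34 in AIFM1 (mean and SD over windows), −0.42 ± 0.36 in ZNF184, 0.47 ± 0.19 in RANGAP1, 0.26 ± 0.20 in NUMA1 and 0.11 ± 0.55 in VIM. VIM thus had the smallest difference in level and the largest spread along the rRNAs.

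The windows with the highest and lowest mean over proteins, after subtracting the library median off chrM, were as follows. On 12S the lowest was 1350 to 1449, with −0.60 ± 2.04 (SD over 6 proteins), and the highest was 1550 to 1603, with 2.91, which had a peak in RNF219 and 1 ZNF184 library alone. On 16S the lowest was 1673 to 1772, with −3.05 ± 1.46 (SD over 6 proteins), where every library with a peak was below its median off chrM. The highest was 3173 to 3230, with 1.09 ± 3.30 over 3 proteins. In both of the highest windows RNF219 stood at 6.34 and 4.83 above its median off chrM, and every other library with a peak there was below its own.

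Significant peaks that shared at least 1 nt were merged into 21 sites. Abutting pieces stayed separate, so several sites can be parts of 1 unbroken stretch. Of the 21 sites, 4 were significant in at least 2 libraries, all on 12S and all shared by AIFM1 and RNF219. No other protein had a significant rRNA peak, so only AIFM1 and RNF219 could share a site. Most 12S peaks of RNF219 and AIFM1 replicate 2 were significant, and whether their sites overlap more than this implies was not tested. With an overlap of at least 10 nt required, the number of shared sites was 6. The site 922 to 970 was significant in both AIFM1 libraries and RNF219, and it was the 1 site with a significant peak in AIFM1 replicate 1. Its mean log2 fold was 2.92 and 3.82 in AIFM1, 4.36 in RNF219, 2.60 and 2.49 in NUMA1, −0.17 and −0.03 in ZNF184, −0.41 and −0.15 in VIM, and −0.95 and −1.49 in RANGAP1, with all 49 nt in a peak in every library. The AIFM1 replicate 1 peak that passed, 922 to 942, had a log2 fold of 3.15, from about 234 eCLIP and 32 input reads, and its neighbour 943 to 970 was just outside the threshold at 2.75.

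The site 699 to 734 had 3.55 in AIFM1 replicate 2 and 3.65 in RNF219, where the peak covered 7 nt of it. NUMA1 had 1.89 and 1.93 there, ZNF184 had 1.81 and 2.01, VIM had −0.62 and 0.05, and RANGAP1 had −1.29 and −1.89. AIFM1 replicate 1 had no peak at this site. The site 749 to 786 had 3.69 in AIFM1 replicate 2 and 4.20 in RNF219, 1.45 and 1.83 in ZNF184, and no peak in NUMA1 or AIFM1 replicate 1. The site 1266 to 1317 had 3.97 in AIFM1 replicate 2 and 3.45 in RNF219, 1.30 and 1.17 in NUMA1, and 0.33 and 0.32 in ZNF184. At all 4 sites both RANGAP1 libraries were below input, between −0.95 and −2.67.

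The strongest rRNA peaks of RNF219 lay where AIFM1, NUMA1, RANGAP1 and VIM had no peak and so no value. They lay at 1542 to 1567 (7.41) and 1529 to 1541 (5.62) near the 3′ end of 12S, at 1009 to 1013 (7.05) and 1001 to 1008 (6.69) at the edge of the stretch of 12S without peaks, and at 3218 to 3230 (6.98), 3192 to 3217 (5.55) and 3185 to 3191 (5.22) at the 3′ end of 16S. The last of the 16S sites ended at the last nucleotide of the gene. At the sites listed, ZNF184 had a peak in 1 or both libraries, with a mean log2 fold of −0.17 to 0.76, not significant. AIFM1 had 1 significant site on 16S, 2532 to 2567, with 3.32 in replicate 2, where replicate 1 had a peak at 2533 to 2566 with 2.58.

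The highest and lowest peaks of at least 10 nt repeated the order of the genes. In AIFM1 the highest were on 12S, at 922 to 942 (3.15) and 1318 to 1337 (4.16, from about 601 eCLIP and 18 input reads), and the lowest on 16S, at 1716 to 1779 (−3.40) and 2289 to 2302 (−2.62). ZNF184 had its highest at 728 to 737 (1.88) and 693 to 726 (2.01) and its lowest at 1868 to 1886 (−5.12) and 1868 to 1883 (−3.98). The lowest RNF219 peak was at 1829 to 1848 (−2.41). NUMA1 had its highest at 921 to 930 (2.86) and 921 to 946 (2.61) and its lowest at 2257 to 2291 (0.36) and 2334 to 2345 (−0.01).

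RANGAP1 and VIM departed from that order. Among peaks of at least 10 nt, RANGAP1 had its highest on 16S, at 1828 to 1867 (−0.19) and 1828 to 1845 (−0.59), and its lowest on 12S, at 966 to 979 (−2.55) and 1325 to 1337 (−2.79). With shorter peaks counted, the lowest of RANGAP1 replicate 1 was on 16S, at 1731 to 1737 (−2.70). VIM had its highest at 1826 to 1867 (1.21) and 1829 to 1846 (0.42), and its lowest at 2272 to 2283 (−1.51) and 1741 to 1753 (−2.08), all on 16S. The stretch that begins at 1826 to 1829 thus held the highest peak of at least 10 nt in all 4 libraries of these proteins and the lowest such peak in RNF219, and the lowest such ZNF184 peaks lay directly after it.

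The rest of the chrM plus strand, which holds the messenger and transfer RNAs of the same heavy-strand transcript, had 846 peaks. The rRNA median minus the median of these peaks was 1.54 ± 0.34 in NUMA1, −0.66 ± 0.05 in VIM, −0.91 ± 0.10 in RANGAP1, −1.80 ± 0.03 in AIFM1 and −2.65 ± 0.26 in ZNF184 (SD, n = 2 each), and −2.46 in RNF219 (n = 1). NUMA1 was thus the 1 protein whose rRNA peaks were higher than the rest of the transcript, where its medians were −0.49 and −0.38. Over the 6 proteins the difference was −1.16 ± 1.55 (SD, n = 6), negative in 5 of 6 (exact sign-flip permutation p = 0.125, adjusted 0.125), and it was −0.43 with peaks of at least 10 nt and −0.46 with length-weighted means.

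The stretches that flank the rRNA genes carried peaks in nearly all libraries. Between 12S and 16S (1604 to 1672, where the valine transfer RNA is encoded), the mean log2 fold was 4.91 and 4.50 in ZNF184, 2.62 and 4.01 in VIM, 3.66 in RNF219, 1.52 and 1.47 in NUMA1, 0.09 and 0.85 in AIFM1, and 0.30 and −0.11 in RANGAP1. The −log10 p there was only 0.05 and 0.72 in AIFM1 and at most 0.58 in RANGAP1. The highest ZNF184 values given here thus lay directly beside the 16S gene, on which ZNF184 was lowest of the 6 proteins. In a comparison added after the data had been seen, this stretch was above the 16S median by 3.41 ± 2.60 (SD, n = 6), in 6 of 6 proteins (exact sign-flip permutation p = 0.0312, the smallest possible). Against the 12S median it differed by 1.30 ± 2.59 (SD, n = 6), higher in 4 of 6 proteins (exact permutation p = 0.312).

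Directly before 12S, where the phenylalanine transfer RNA is encoded, RNF219 had a peak at 597 to 634 with 7.62 and AIFM1 replicate 2 a peak at 616 to 635 with 4.18, while AIFM1 replicate 1 had none. The −log10 p was 15.7 at this RNF219 peak and 10.0 at this AIFM1 peak, against 400 at the significant RNF219 peaks on the rRNAs. VIM had 3.11 in replicate 1 and 3.81 and 3.82 in replicate 2, and ZNF184 had 3.02 and 2.56 in replicate 1 and 3.53 and 3.41 in replicate 2. NUMA1 had 2.09 and 0.47 in replicate 1 and 2.70 and 0.90 in replicate 2, and RANGAP1 had 1.21 and −0.13. VIM and ZNF184 were thus enriched on both sides of 12S and not significant on any stretch of the rRNAs themselves.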

How the data were processed

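Peak lists of 11 eCLIP libraries were analysed, each with 1 size-matched input per protein, and samples were grouped by their titles. Per the submitters' processing notes, reads were processed with cutadapt, STAR, GATK, Picard and SAMtools on hg19. The peak caller was not given in the sources used here, nor was any duplicate removal. The authors' deposited values are a log2 fold over input and a −log10 p per peak, and the lists are per library. The −log10 p was 0 wherever the fold was 0 or less, and 400 at most, with no rRNA peak between 87.9 and 400. Positions are 1-based in the files' numbering of chrM, and no chrM sequence was used here.

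Peaks were assigned by midpoint, and contrasts were computed as medians within a library and averaged per protein. Exact permutation tests were 2-sided unless stated, and Benjamini-Hochberg adjustment was made where an adjusted value is given. The comparison by protein and the pairing test were run on simulated data, and the sign-flip test was not. Software was Python 3.11.15, pandas 2.3.3, NumPy 2.4.6 and SciPy 1.17.1, with figures by matplotlib 3.10.9. Regions named were sites significant in at least 2 libraries, the highest and lowest peak of at least 10 nt in each library, the windows of 100 nt with the highest and lowest mean, and blocks and flanking stretches. The blocks and the single-library sites were chosen after their values were seen. The members, lists and tests were chosen with earlier results of these data known.

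Input over eCLIP depth was recovered from the commonest folds, at ratios of 0.534 to 4.84, and reads were estimated by inverting a Yates-corrected chi-square test, so standard errors cover counting error only. Alternatives were length-weighted means, minimum length, joined pieces, other thresholds, other reference peaks, window sizes, a replicate block and leaving out each library.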

Additional observations from a re-analysis of the deposited data

Results flagged for a closer look

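In 9 comparisons among the 5 proteins with 2 libraries, both libraries of one protein lay on one side of 0 and both of the other on the opposite side. RNF219, with 1 library, was left out of this count, although it also lay opposite NUMA1 or ZNF184 in these contrasts. In each case the difference was not tested. Of these, 4 concern the rRNA peaks relative to the rest of the chrM plus strand, where NUMA1 alone was higher on the rRNAs (1.54): AIFM1 minus NUMA1 was −3.35, NUMA1 minus RANGAP1 was 2.45, NUMA1 minus VIM was 2.20 and NUMA1 minus ZNF184 was 4.19.

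On 16S, where the peaks before the middle of the gene were compared with those after it, NUMA1 had a 5′ excess of 0.22 and AIFM1, VIM and ZNF184 had a 3′ excess. In ZNF184 the contrast was −2.80 in replicate 1 and −0.18 in replicate 2, where it rests on 1 peak after the middle. AIFM1 minus NUMA1 was −4.13, NUMA1 minus VIM was 1.05 and NUMA1 minus ZNF184 was 1.71. On 12S the same contrast was below 0 in both ZNF184 libraries (mean −0.33) and above 0 in both libraries of NUMA1 and VIM, so that NUMA1 minus ZNF184 was 1.43 and VIM minus ZNF184 was 0.66.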

How the results depend on the processing

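Of 196 alternative values for 14 results, 183 kept their direction and their side of the threshold, or stayed within 1.5 times a count. For the rRNA shifts by protein only the direction could change, since none could pass after adjustment under any setting. The 12S 5′ minus 3′ difference passed with length-weighted means (0.486), peaks of at least 10 nt (0.534) and the middle stretch of the gene left out (0.556), and the 12S minus 16S difference on matched nucleotides (2.37). Leaving out 1 library moved 12S minus 16S between 1.69 and 2.19, and it passed without RANGAP1 replicate 2 (2.17). Replicate likeness with peaks of at least 10 nt was 0.876. Against other chrM plus-strand peaks, the shift of AIFM1 relative to the other libraries turned to −0.94, RANGAP1 to 0.16, RNF219 to −1.57 and VIM to 0.46. Significant peaks numbered 20 at a log2 fold of at least 4 and 137 at 1, and 11 to 36 with 1 library left out. The cause of these changes was not tested.

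Whether replicate numbers pair the samples could not be settled. Over 10 pairs of proteins the correlation of deviations along the windows ran from −0.735 to 0.560 and was over 0.1 in 4. Such a correlation cannot see a shift of whole libraries. With a replicate block the shift of NUMA1 was 2.43, of ZNF184 −2.25, of AIFM1 1.03, of RNF219 1.08, of RANGAP1 −0.75 and of VIM −1.05. No direction changed, and no shift could have passed after adjustment. Few libraries, shared inputs and stretches without peaks limit every comparison.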
